A study of Mus musculus with 64 samples.

Results

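CD11b+Ly-6G+ cells, the surface phenotype of neutrophils, were followed through T cell transfer colitis in the mouse colon. They were selected on measured antibody counts, so the levels of CD11b, Ly-6G and CD3 in them are descriptions and carry no test. A cell was a member when its centred log ratio (the natural log of count + 1, less its mean in that cell over 11 antibodies) was above 0.712 for CD11b, above 0.982 for Ly-6G and at most -0.155 for CD3. The rule took 4137 of the 130442 cells kept in 9 libraries. The hosts were SCID mice, which make no mature T or B cells. All of them, those at week 0 included, carry the label CD45RBhi transfer, meaning T cells of the naive CD45RBhi fraction. One library came from week 7 of mice also given anti-IL-12p40 from day 10, an antibody against the subunit that IL-12 and IL-23 share, and 8 libraries came from mice without the antibody, 1 at each of weeks 0 to 7. Each library was the EpCAM-/CD45+ sorted lamina propria fraction of distal colon pooled from 3 animals, with about 16000 cells loaded. The other 55 of the 64 samples of the series were not used here.

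Neutrophils are short-lived granulocytes that leave the blood for inflamed tissue and accumulate in the colon in colitis. CD11b, the integrin alpha M chain, pairs with CD18 into the adhesion and complement receptor of neutrophils, monocytes and many macrophages. Ly-6G is a membrane-anchored protein found in mice almost wholly on neutrophils, and Ly-6C is high on inflammatory monocytes and lower on neutrophils. CD64 is the high-affinity Fc gamma receptor of monocytes and macrophages, CD11c an integrin of dendritic cells and many gut macrophages, and CD103 an integrin chain that binds E-cadherin on epithelium. T cells carry CD3 and CD90.2 and, if helper cells, CD4. Innate lymphoid cells carry CD90.2 and often CD127, the alpha chain of the interleukin-7 receptor, or KLRG1, an inhibitory receptor. Neutrophils are known to lack CD3, CD4 and CD90.2 and, unless activated, to carry little CD64.

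Each week is 1 pool, so how much pools of 1 week differ cannot be measured. Intervals below are exact Clopper-Pearson 95% intervals for counting error only. The libraries held 11534 to 21229 barcodes. The median antibody total of CD11b+Ly-6G+ cells was 1404 to 4575 counts across the 9 libraries, against 570 to 1481 in the other cells of the untreated libraries and 1563 in those of the treated one, so the gated cells were the more deeply counted ones in every library. Library pairs shared 30 to 110 barcodes. Of the gated cells, 121 (2.92%) had a barcode that was also in another library, against 3.13% of all barcodes, and 2 barcodes were gated in both libraries of a pair. Doublets were not removed.

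The gated cells were a minority of the immune fraction in every library, and without treatment their share was larger from week 3 on than before. In the order of weeks 0 to 7 they numbered 125, 185, 502, 485, 1094, 523, 517 and 645 cells. In the same order, their share of cells was 0.747%, 1.47%, 2.39%, 3.86%, 6.11%, 3.76%, 4.53% and 5.42%. The share was lowest at week 0 and highest at week 4, and every week from 3 on lay above weeks 0 to 2.

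Set against the rest of the CD11b+ compartment, the course ended differently. Of CD3-CD11b+ cells, the gated cells made up 2.57%, 5.40%, 7.21%, 18.9%, 18.1%, 26.1% and 21.4% in weeks 0 to 6 in order, and 73.1% (70.1 to 76.0) in week 7. At week 7 the gated cells were thus most of the CD3-CD11b+ cells, which they were at no other week. The step between weeks 6 and 7 came with fewer Ly-6G- cells: 1904 CD3-CD11b+Ly-6G- cells were counted at week 6 and 237 at week 7, with 517 and 645 gated cells. Shares are parts of a whole, and whether more neutrophils or fewer other CD11b+ cells were in the tissue cannot be told apart from them.

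**Figure D1:**
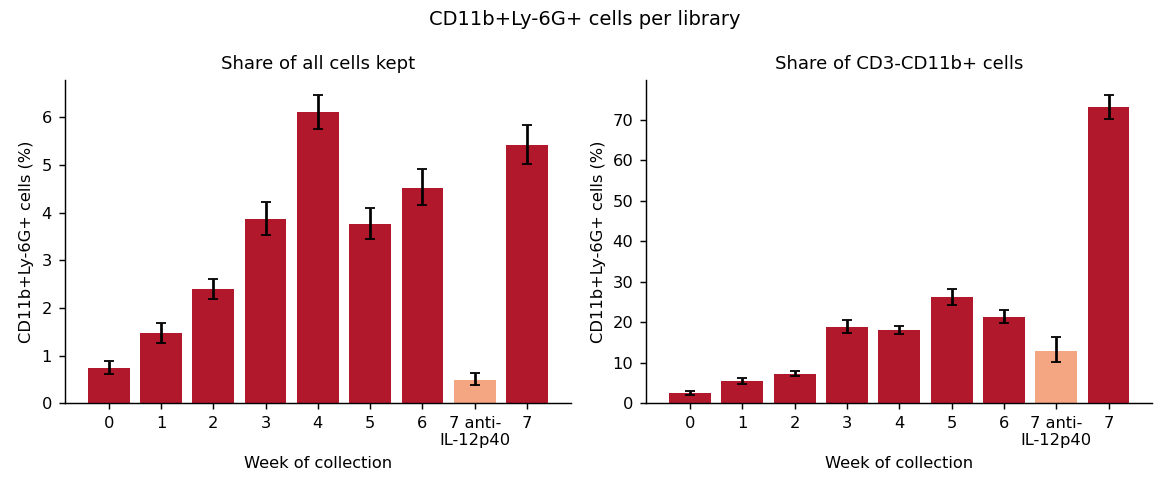
CD11b+Ly-6G+ cells in each library as a percent of all cells kept (left) and of CD3-CD11b+ cells (right), by week of collection, with exact 95% intervals as error bars; the pale bar is the anti-IL-12p40 library. The untreated share of cells peaks at 6.11% at week 4, the share of CD3-CD11b+ cells at 73.1% at week 7, and the treated bars stand at 0.490% and 13.0%.

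Ly-6G was strong on the gated cells and close to background elsewhere, with week 0 as the weakest library. The median Ly-6G count per gated cell, for weeks 0 to 7 in order, was 185, 743, 339.5, 1188, 595.5, 685, 783 and 1258. CD3-CD11b+Ly-6G- cells of the same libraries had medians of 3 to 25 counts, so gated cells carried 37 to 248 times as many. The libraries differed in depth and in this background, and the median centred log ratio, which adjusts for the depth of each cell, was 1.56, 2.23, 2.32, 2.46, 2.72, 2.70, 2.62 and 2.95 in that order. On that scale week 0 stood lowest, weeks 1 to 3 lay between it and the later weeks, and week 7 stood highest. Weeks 4, 5 and 6 lay close together.

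CD11b varied less and did not follow the order of Ly-6G. Its median count on gated cells was 611, 501, 302.5, 770, 405, 467, 513 and 659 for weeks 0 to 7 in order. CD3-CD11b+Ly-6G- cells had medians of 158 to 333 counts, and the gated cells carried 1.46 to 2.57 times as many. Gated cells thus had the higher CD11b median in each of the 8 untreated libraries, given as a description since CD11b is a protein of the rule. The centred log ratio of CD11b was highest at week 0 (2.86) and lowest at week 3 (2.08).

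The balance of both proteins set week 0 apart. The share of gated cells with more Ly-6G than CD11b counts was 14.4%, 58.9%, 55.0%, 78.6%, 71.1%, 71.7%, 80.1% and 92.9% for weeks 0 to 7 in order. The median log2 ratio of Ly-6G to CD11b counts was -1.70, 0.16, 0.17, 0.60, 0.53, 0.75, 0.51 and 0.91 in the same order, negative in week 0 alone. Gated cells held 34.1% of the Ly-6G counts of the cells kept at week 0, and 64.3% to 76.6% at weeks 1 to 7. Ly-6G without CD11b was rare: 0 to 8 CD3- cells per library passed the Ly-6G cut but not the CD11b cut.

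**Figure D2:**
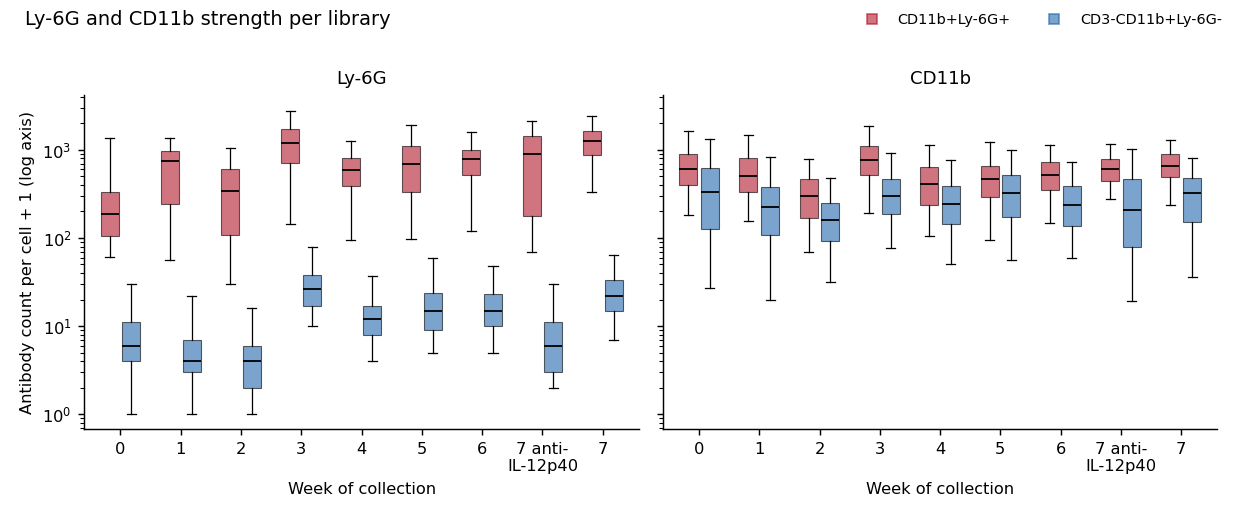
Ly-6G (left) and CD11b (right) counts per cell plus 1 on a log axis, by week of collection, in CD11b+Ly-6G+ cells (red) and CD3-CD11b+Ly-6G- cells (blue); boxes span the quartiles with the median as a line, and whiskers run between the percentiles 5 and 95. The red Ly-6G boxes of week 0 and week 2 are the lowest of the untreated libraries (medians 185 and 339.5), while the CD11b whiskers of both populations overlap in every library.

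Ly-6C, the third protein named for this phenotype, was at least 2.09 times its level on CD3+CD11b-Ly-6G- cells from week 1 on. It had no one order against the other CD11b+ cells. The median Ly-6C count of gated cells was 138, 366, 332.5, 1251, 383.5, 326, 862 and 1061 for weeks 0 to 7 in order. CD3+CD11b-Ly-6G- cells, the T cell gate of the same libraries, had 79, 63, 159, 253, 145, 128, 175 and 102. At week 0 that gate held 95 cells with medians of 5 CD3 and 1 CD4 counts, and CD90.2 passed on 33.7%. They were thus not clear T cells, and at week 1 the gate was mixed, with CD4 passing on 65.6%. The gated CD11b+Ly-6G+ cells were 1.75 times that reference at week 0 and 2.09 to 10.4 times at weeks 1 to 7. CD3-CD11b+Ly-6G- cells had medians of 159, 127, 455.5, 718, 291, 362.5, 586.5 and 785 counts in that order, so the gated cells had the higher median in weeks 1, 3, 4, 6 and 7 and the lower one in weeks 0, 2 and 5. The Ly-6C+ ones among them, the phenotype of monocytes, had medians of 1332 to 4759 counts, but were chosen for high Ly-6C. The Ly-6C cut, whose populations are not separable here, was passed by 2 of 125 gated cells in week 0, by 4.97% in week 5 and by 14.6% to 31.9% in the other untreated weeks.

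Within the gated cells of each library, Ly-6C and Ly-6G counts ranked together. Spearman's rho over cells was 0.424 to 0.888 for the counts in the 9 libraries and 0.133 to 0.859 for the centred log ratios. In week 7, the top quartile of gated cells by Ly-6G had a median of 1884 Ly-6C counts, against 487.5 in the bottom quartile. In week 0 the corresponding medians were 300 and 109.5. The quartiles differed in depth as well, with median antibody totals of 6080 in the top and 1773 in the bottom quartile at week 7, and of 3156 and 1193 at week 0. The part of depth in the count relation was not tested beyond the centred log ratios above. CD11b ranked with Ly-6G at rho 0.189 to 0.693 in counts. Proteins of other cell types did so too, among them CD3 at 0.297 to 0.562, CD64 at 0.254 to 0.509 and CD4 at 0.246 to 0.470. For CD11c rho was -0.22 to 0.5. A positive relation in counts was thus not particular to Ly-6C and CD11b. In centred log ratios, only Ly-6C had a positive rho in all 9 libraries. On that scale rho was -0.205 to 0.738 for CD11b, -0.583 to 0.0993 for CD3, -0.369 to 0.337 for CD64 and -0.632 to -0.0917 for CD4. Cells of a library share its depth and are not replicates, and these relations carry no test.

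The macrophage and dendritic cell proteins CD64 and CD11c were lower on gated cells than on the other CD11b+ cells, with week 1 as the exception in counts. The median CD64 count of gated cells was 9, 62, 17.5, 70, 47.5, 17, 16 and 8 for weeks 0 to 7 in order, against 87, 43, 38, 118, 105, 91, 50 and 91 on CD3-CD11b+Ly-6G- cells. Gated cells had fewer CD64 counts at 7 of 8 weeks. CD11c had medians of 52, 50, 24, 53, 34.5, 12, 23 and 17 counts on gated cells in the same order, against 95, 36, 39, 79, 118, 47, 77 and 47 on CD3-CD11b+Ly-6G- cells. Gated cells were again lower at every week but week 1.

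The test of that difference used the 8 proteins outside the rule, each as a centred log ratio over those 8, with the library as the pair (CD11b+Ly-6G+ minus CD3-CD11b+Ly-6G- cells, two-sided exact sign-flip test over 8 libraries, Benjamini-Hochberg adjustment over 8 proteins, smallest possible p 0.00781). CD64 differed by -0.950 ± 0.571 on the natural log scale (SD, n = 8 libraries; exact p = 0.00781, adjusted p = 0.0312) and was lower in 8 of 8 libraries. CD11c differed by -0.557 ± 0.404 (SD, n = 8; exact p = 0.0156, adjusted p = 0.0312) and was lower in 7 of 8. Both differences kept their sign when centred over all 11 proteins (CD64 -1.43, CD11c -1.02; exact adjusted p = 0.0125 for both) and when counts were scaled to the library median (-1.32 and -1.21; exact adjusted p = 0.0125 for both). Both scalings include CD11b and Ly-6G, which the rule chose to be high on gated cells, and this lowers the other proteins there. All 8 proteins had negative mean differences under both, so the kept sign is no separate support. On log2 counts without scaling they were -1.61 and -1.05, and both missed the threshold (each with an exact adjusted p = 0.0625).

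Another 4 proteins passed this test, each higher on gated cells, but their direction depended on the scaling. The difference was 0.325 ± 0.243 for Ly-6C, 0.350 ± 0.197 for CD90.2, 0.244 ± 0.194 for CD127 and 0.157 ± 0.143 for KLRG1 (SD, n = 8 libraries; exact adjusted p = 0.0312 for each). Centred over 11 proteins, the 4 turned to -0.0924, -0.0982, -0.214 and -0.303, and with counts scaled to the library median to -0.431, -0.234, -0.150 and -0.167. No direction is therefore given for them. CD4 (0.307 ± 0.355, exact adjusted p = 0.0625) and CD103 (0.112 ± 0.210, exact adjusted p = 0.180) did not pass. With 1 library left out, 7 pairs allow no exact p below 0.0156, and 0 to 6 proteins passed. Without week 0 or 1, 6 passed, without week 2, 3 passed, and without any single one of weeks 3 to 7, 0 passed.

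**Figure D3:**
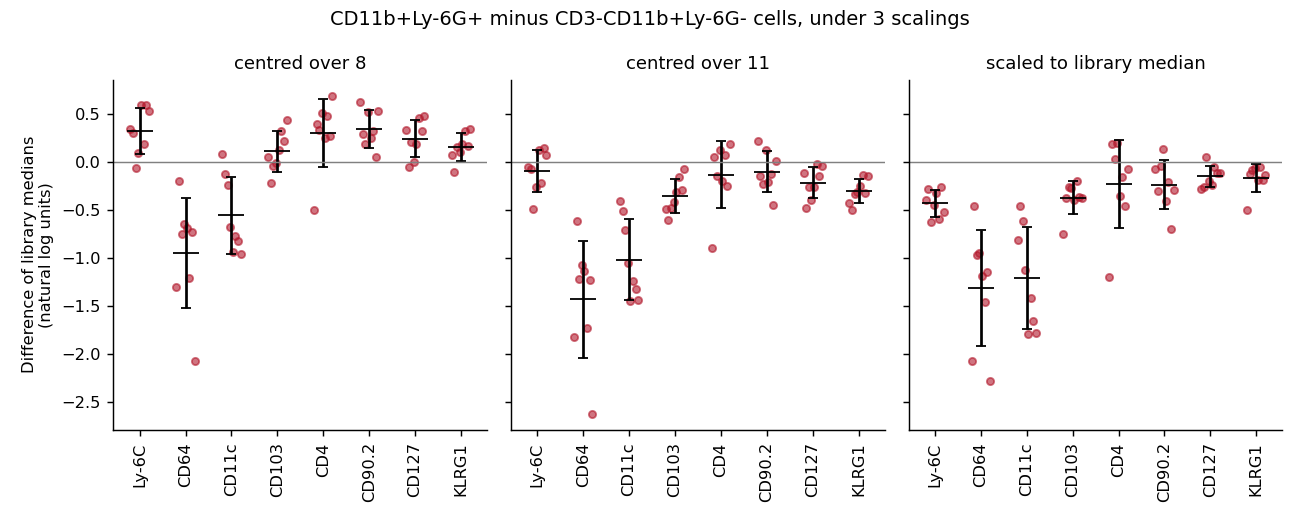
Difference between library medians (CD11b+Ly-6G+ minus CD3-CD11b+Ly-6G- cells, natural log units) for the 8 proteins outside the rule, under 3 scalings; points are the 8 untreated libraries, in week order from left to right within each protein, and bars the mean and SD. CD64 lies below 0 in all libraries in every panel, while the mean of Ly-6C is 0.325 in the left panel and -0.0924 and -0.431 in the others.

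Among the gated cells themselves, the share past the CD64 or CD11c cut was high until week 4 and low afterwards. It was 57.6%, 67.0%, 61.4%, 45.6% and 60.2% for weeks 0 to 4 in order, and 17.0%, 12.2% and 2.95% for weeks 5 to 7. CD64 alone passed on 53.2% of gated cells at week 4 and 0.620%, or 4 of 645 cells, at week 7. CD3-CD11b+Ly-6G- cells passed for CD64 at 59.5% to 90.7% in the untreated libraries. Among all cells outside the gate, CD64 passed on 30.5% at week 4 and on 9.71%, 11.5% and 1.58% at weeks 5 to 7 in order. CD11c passed there on 33.7% at week 4 and on 10.1%, 15.3% and 2.99% at weeks 5 to 7. A drop after week 4 was thus also seen in all cells outside the gate. CD11b itself passed on 34.1% of those cells at week 4 and 3.73% at week 7. On CD3-CD11b+Ly-6G- cells CD64 passed on 90.7% at week 4 and on 71.6%, 59.5% and 67.5% at weeks 5 to 7. CD11c passed on 74.45% of them at week 4 and on 42.9%, 52.3% and 43.0% at weeks 5 to 7. Both stayed frequent on them, whereas on gated cells CD64 fell to 0.620% and CD11c to 2.48% at week 7. In week 4, gated cells past the CD64 or CD11c cut had a median of 579 Ly-6G counts, against 618 in those past none of the CD64, CD11c, CD4 and CD90.2 cuts, so both kinds were strong in Ly-6G. At week 5 the corresponding medians were 302 and 643. Cells past either cut had the lower Ly-6G median in weeks 1, 2, 4 and 5 and the higher one in weeks 0, 3, 6 and 7.

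Proteins of lymphocytes were also found on gated cells. CD4 passed on 4.80%, 8.65%, 9.96%, 12.4%, 8.50%, 36.7%, 21.3% and 38.0% of them for weeks 0 to 7 in order. In the other cells of those libraries the CD4+ share was 11.8%, 13.5%, 47.3%, 65.3%, 62.7%, 84.9%, 77.7% and 95.2%. Both series were lowest at week 0 and highest at week 7. The median CD4 count of gated cells was 5, 16, 7, 37, 9, 24, 22 and 24 in the same order, against 126 to 274 on CD3+CD11b-Ly-6G- cells of weeks 1 to 7. The passing cells were an upper tail: in week 7 the upper quartile of gated cells was 266 counts and the lower quartile 10.

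CD90.2 was most frequent early and least frequent in week 4, on gated cells and on the other CD11b+ cells alike. It passed on 48.0%, 36.8%, 23.5%, 14.9% and 4.30% of gated cells for weeks 0 to 4 in order, and on 11.9%, 22.2% and 20.3% for weeks 5 to 7. CD3-CD11b+Ly-6G- cells passed at 46.6%, 35.5%, 20.7%, 6.82%, 3.22%, 15.1%, 14.7% and 10.1% for weeks 0 to 7 in order. The median CD90.2 count of gated cells was 260, 130, 40, 124, 29, 50, 86 and 75 for weeks 0 to 7, highest in week 0, where CD3-CD11b+Ly-6G- cells had 163. In the early libraries CD90.2 came without CD4 (59 of the 60 passing cells at week 0), and at week 7 mostly with it (108 of 131). Gated cells past the CD4 or CD90.2 cut had larger antibody totals than those past none of the 4 cuts in all 9 libraries, with medians of 4814 against 3002 counts at week 7 and 2478 against 1218 at week 0. Their Ly-6G had no one order: the median was higher in weeks 0, 3, 5, 6 and 7 (1394 against 1172 counts at week 7), and lower in weeks 1, 2 and 4 (699.5 against 822 at week 1) and in the treated library (297 against 1300). Droplets that hold a pair of cells would carry both sets of proteins, and their part in these values was not tested.

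The CD3 cut removed further barcodes of this kind. Barcodes that passed for CD11b, Ly-6G and CD3 together numbered 0, 1, 67, 108, 174, 98, 9 and 127 for weeks 0 to 7 in order. They were 16.5% of all CD11b+Ly-6G+ barcodes at week 7, where CD3+ cells were 88.1% of the library, and 1.71% at week 6, where they were 55.9%. Their median Ly-6G was 1196 counts at week 7, near the 1258 of the gated cells, and their median CD4 was 310. The 113 gated cells within 0.1 below the CD3 cut had medians of 216 CD4 and 635 CD90.2 counts, and the 112 CD11b+Ly-6G+ cells within 0.1 above it had 212.5 and 623.5, so that cut falls within a run of like cells. At the Ly-6G cut the 101 cells just inside had a median of 68 Ly-6G and 357 CD11b counts and the 85 just outside had 75 and 381. Only 10 cells lay on either side of the CD11b cut within the same distance.

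**Figure D4:**
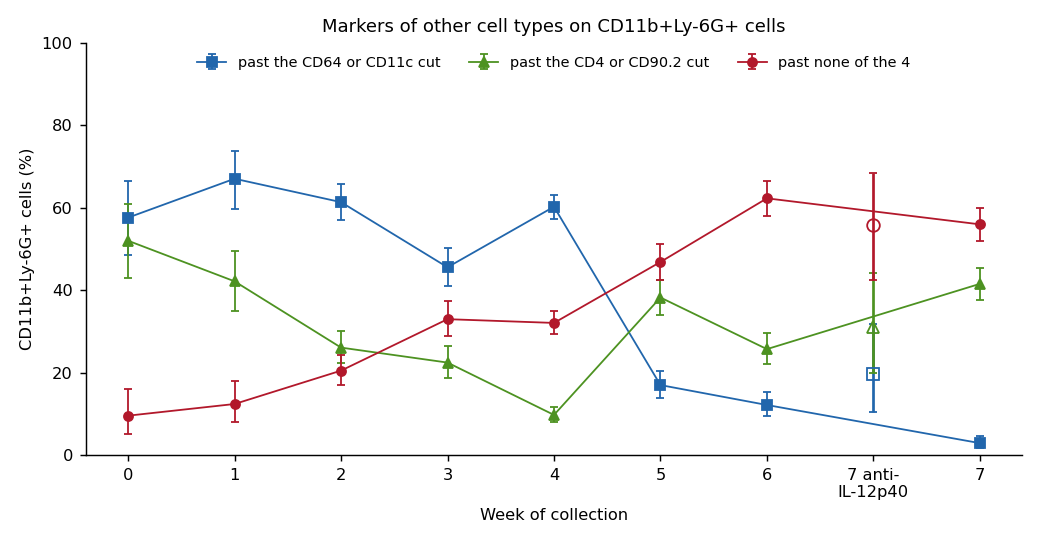
Percent of CD11b+Ly-6G+ cells past the CD64 or CD11c cut (squares), past the CD4 or CD90.2 cut (triangles) and past none of the 4 cuts (circles), by week of collection, with exact 95% intervals; open symbols are the anti-IL-12p40 library. The squares drop to 17.0% at week 5 and 2.95% at week 7, and the circles climb to 62.3% at week 6.

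Gated cells past none of these 4 cuts, the plainest neutrophil phenotype the panel allows, numbered 12, 23, 103, 160, 351, 245, 322 and 361 for weeks 0 to 7 in order. They were 9.60%, 12.4%, 20.5%, 33.0%, 32.1%, 46.8%, 62.3% and 56.0% of gated cells. Their share of all cells was 0.0717% at week 0 and 3.03% at week 7. At week 0 even these 12 cells had medians of only 170.5 Ly-6G and 138.5 Ly-6C counts. Several week 0 values therefore go against the neutrophil label: low Ly-6G, more CD11b than Ly-6G, and a median Ly-6C of 138 against 105 in all other cells. CD11c passed its cut on 45.6% of gated cells and CD90.2 on 48.0%, where CD3-CD11b+Ly-6G- cells of that week passed at 59.3% and 46.6%. Other values go with the label: CD64 passed on 18.4% of gated and 67.9% of CD3-CD11b+Ly-6G- cells, and CD4 on 4.80% and 23.7%. Median Ly-6G was also 37 times that of CD3-CD11b+Ly-6G- cells, though the rule chose it. The cells of that library are called only by their rule here.

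Across the 8 untreated weeks, 0 of the 8 other proteins passed the test of a trend within gated cells (Spearman's rank correlation of the library median with week on the centred log ratio over 8 proteins, two-sided exact permutation p over 40320 orderings, adjusted over 8). Unadjusted, 3 had p below 0.05, and 1 passed with Pearson's correlation. These p-values measure how unusual the order of the pools is among all their orderings. CD4 had rho 0.857 (exact p = 0.0107, adjusted p = 0.0745) and Pearson r 0.853 (exact p = 0.00615, adjusted p = 0.0492), and r was 0.700 without weeks 0 and 7. CD11c had rho -0.810 (exact p = 0.0218, adjusted p = 0.0745) and r -0.793 (exact p = 0.0260), and r was -0.597 without weeks 0 and 7. Ly-6C had rho 0.786 (exact p = 0.0279, adjusted p = 0.0745) and r 0.746 (exact p = 0.0357), and r was 0.439 without those weeks.

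The median level of CD4 on that scale was -1.24 at week 0 and -0.0076 at week 7, with the highest value, 0.17, at week 5. CD11c was 0.72 at week 0 and -0.56 at week 7, and Ly-6C was 1.76 at week 0 and 3.34 at week 7. For Ly-6C, week 0 and week 1 were the 2 lowest libraries and the other 6 lay between 2.56 and 3.34. The CD4 relation moved with the CD4+ share of the surrounding cells given above, and it passed when week 4 or week 5 was left out (rho 0.893, exact adjusted p = 0.0492 each) and when cells were thinned to 200 counts (rho 0.905, exact adjusted p = 0.0365). CD103 had rho 0.714 (exact adjusted p = 0.115), CD64 -0.333 (0.572), CD90.2 -0.286 (0.572), KLRG1 0.286 (0.572) and CD127 0.0238 (0.977). With gated cells past the CD4 or CD90.2 cut left out, 0 of 8 passed as well.

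**Figure D5:**
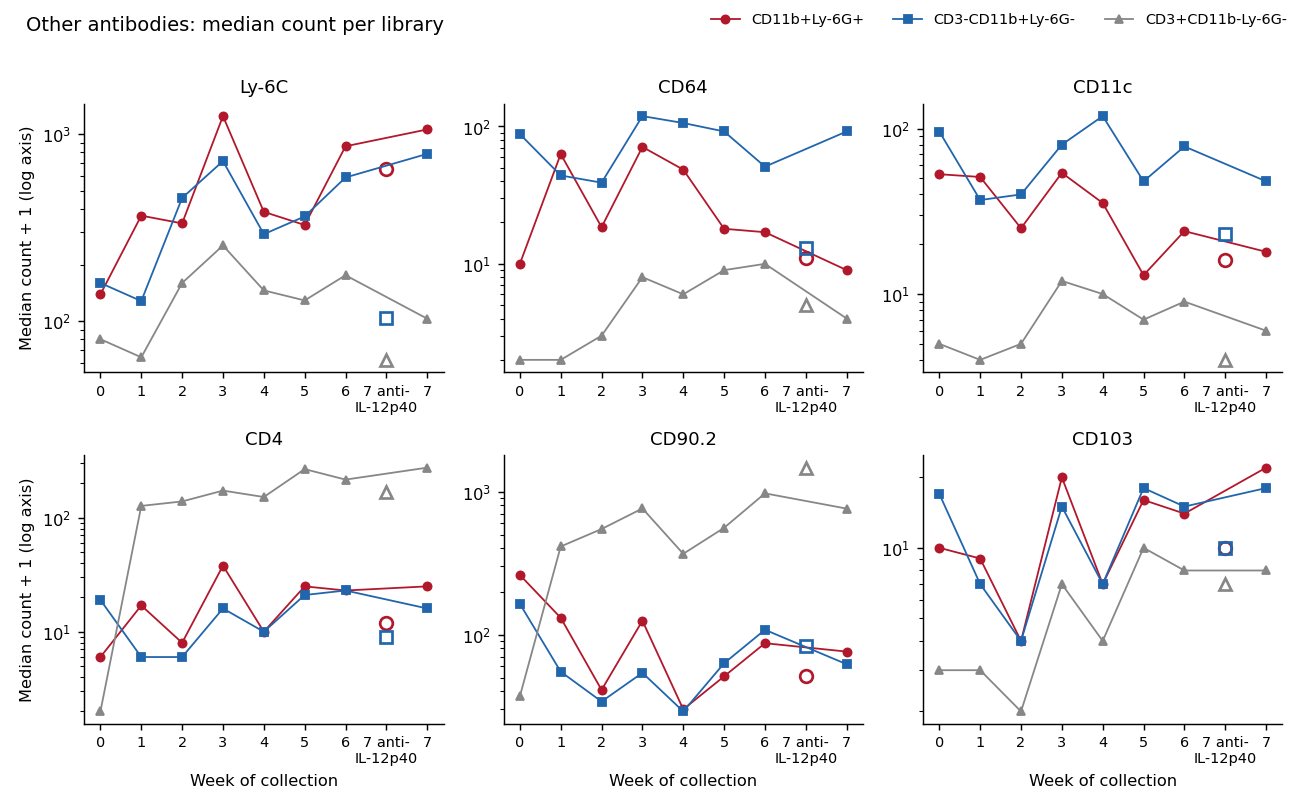
Median count plus 1 on log axes of 6 proteins outside the rule, by week of collection, in CD11b+Ly-6G+ cells (red circles), CD3-CD11b+Ly-6G- cells (blue squares) and CD3+CD11b-Ly-6G- cells (grey triangles); open symbols are the anti-IL-12p40 library. Red lies below blue for CD64 and CD11c at all untreated weeks but week 1, and red and blue lie below the grey CD4 and CD90.2 levels at weeks 1 to 7.

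The remaining 3 proteins were low on gated cells. CD103 had medians of 3 to 21 counts in the untreated libraries, against 3 to 17 on CD3-CD11b+Ly-6G- cells. CD127 had medians of 16, 8, 2, 18, 3, 6, 8 and 12 counts for weeks 0 to 7 in order, against 2 to 14 on CD3-CD11b+Ly-6G- cells, and passed its cut on 50 of 125 gated cells in week 0 and on 1.92% to 10.3% in the later weeks. At week 0 that share is near the 42.9% of CD3-CD11b+Ly-6G- cells and below the 68.6% of all other cells. In the later weeks those populations passed at 1.89% to 31.9% and 29.8% to 68.9%. The shares use the centred log ratio over 11 proteins, which the rule's proteins lower on gated cells. In counts, the CD127 median of gated cells was 1 to 1.71 times that of CD3-CD11b+Ly-6G- cells in the untreated libraries. KLRG1 had 2, 2, 1, 8, 2, 2, 3 and 3 counts, against 1 to 5. That is near the 0 to 6 counts of CD3+CD11b-Ly-6G- cells, and both were highest in week 3, the library with the largest median antibody total of gated cells.

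Neutralising IL-12p40 addressed whether the cytokines that share this subunit bear on the infiltrate at week 7. The treated library held 61 gated cells of 12437, or 0.490% (0.375 to 0.630), against 645 of 11907, or 5.42% (5.02 to 5.84), in the untreated library, a ratio of 0.0905. Of CD3-CD11b+ cells they were 13.0% (10.1 to 16.4), or 61 of 469, against 73.1% (70.1 to 76.0), or 645 of 882, a ratio of 0.178. CD3-CD11b+Ly-6G- cells numbered 408 in the treated and 237 in the untreated library. Against that library, the lower share of gated cells did not come with fewer of the other CD11b+ cells. Untreated week 7 was itself apart, since weeks 5 and 6 held 1478 and 1904 of those cells, more than the treated library. The treated 13.0% lay below the 26.1% and 21.4% of untreated weeks 5 and 6 and above the 2.57% to 7.21% of weeks 0 to 2. The comparison is 1 library against 1, each a pool of 3 animals, with no test and no replicate check. Counting only cells past none of the CD64, CD11c, CD4 and CD90.2 cuts, 34 treated and 361 untreated cells remained, a ratio of 0.0902. The ratio for all cells rested on common cuts: with cuts fitted in each library it was 0.532, but the treated Ly-6G cut then fell to a centred log ratio of -1.42 and its 371 gated cells had a median of 9 Ly-6G counts, against 1256 in the 668 untreated ones.

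Strength differed less than number between the week 7 libraries. The median Ly-6G count was 886 in treated and 1258 in untreated gated cells, with quartiles of 177 and 1451 in the treated and 881 and 1633 in the untreated library. The upper ends of both libraries lay near each other, and the treated library had a longer low tail. Median CD11b was 604 in treated and 659 in untreated cells. As a centred log ratio, which adjusts for depth, CD11b was instead higher in treated cells, 2.81 against 2.40. Ly-6G was lower on that scale too, 2.44 against 2.95. With the CD11b and Ly-6G cuts lowered by 0.5, the treated over untreated ratio of Ly-6G medians was 0.317 in place of 0.704, and that of Ly-6C medians 0.345 in place of 0.616. Ly-6G exceeded CD11b on 59.0% of treated and 92.9% of untreated gated cells.

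The low tail of the treated library was low in Ly-6C as well. The bottom quartile of treated gated cells by Ly-6G, 16 cells, had medians of 107 Ly-6G and 105 Ly-6C counts, and CD11c passed on 62.5% of them. The top quartile, 15 cells, had 1818 Ly-6G and 1532 Ly-6C counts, and CD11c passed on 0 of them. In the untreated library the bottom quartile had 640 Ly-6G and 487.5 Ly-6C counts and the top quartile 2014 and 1884. Median antibody totals of the bottom and top quartiles were 1346 and 4444 in the treated and 1773 and 6080 in the untreated library. Those 34 treated cells past none of the 4 cuts had medians of 1300 Ly-6G and 855.5 Ly-6C counts, against 1172 and 952 in the 361 untreated ones.

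Of the 8 proteins outside the rule, 7 had a lower median count in treated than in untreated gated cells, CD64 being the exception. The median antibody total was also lower, 2482 in treated and 3656 in untreated gated cells. Centred over the 8 proteins, the direction was mixed. Treated minus untreated levels were 0.526 for CD64, 0.303 for CD11c, 0.12 for CD90.2 and 0.067 for KLRG1. They were -0.179 for Ly-6C, -0.388 for CD103, -0.457 for CD4 and -0.097 for CD127. Median Ly-6C was 654 in treated and 1061 in untreated gated cells, a ratio of 0.616, and 61 and 104 in the other cells of those libraries, a ratio of 0.587. CD4 was 11 in treated and 24 in untreated gated cells, a ratio of 0.458, and 134 and 267 in the others, a ratio of 0.502. CD90.2 was 50 in treated and 75 in untreated gated cells, a ratio of 0.667, where the other cells had 1193 and 732. CD103 was 9 in treated and 21 in untreated cells, below the 13 to 21 of untreated weeks 5 to 7. CD127 was 6 and 12 and KLRG1 2 and 3 in treated and untreated cells, within the range of those weeks.

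Median CD64 and CD11c counts of gated cells were low in both week 7 libraries, but CD11c passed on a larger share of the treated ones. CD64 had medians of 10 counts in treated and 8 in untreated gated cells and passed on 1.64% (1 of 61) and 0.620% (4 of 645). CD11c had 15 counts in treated and 17 in untreated gated cells and passed on 19.7% (12 of 61) and 2.48% (16 of 645). In the other cells of those libraries CD11c passed on 7.67% and 2.99%. CD4 passed on 14.8% of treated and 38.0% of untreated gated cells, in libraries whose other cells were CD4+ at 69.9% and 95.2%. With 61 treated cells, a share of 1.64% is 1 cell, and small differences were not detectable at this number.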

How the data were processed

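Surface proteins were counted on single cells of 9 libraries with tagged antibodies against 11 proteins. The authors deposited raw whole-number antibody counts for every barcode, as the file values show. Seurat 4.1.1, Cell Ranger 6.0.2 and mm10 stand in the submitters' processing notes without a role, and how barcodes were chosen is not stated there. Barcodes with fewer than 50 counts and those above the library's percentile 99 were left out, 1475 in all, which left 130442 of 131917. No doublet caller was run. Levels for tests were centred log ratios over the 8 proteins outside the rule, as library medians. The gate itself centres over all 11, so it is not wholly free of the 8. Cuts for other proteins were the crossing point of a mixture of 2 Gaussians fitted on 2000 cells per library, on the centred log ratio over 11 proteins. The rule chose CD11b and Ly-6G to be high on gated cells, which lowers their shares past these cuts. Ashman's D, the distance between both populations in units of their spread, was 1.82 for Ly-6C and 1.56 for CD127, which were taken as not separable below 2. The members, protein lists and tests were chosen with earlier results of these data known. All 11 proteins are named, with values per library for Ly-6G, CD11b, Ly-6C, CD64, CD4, CD11c, CD90.2, CD127 and KLRG1, and CD103 as a range. The gate and both exact tests were run on simulated data. Simulated gated cells were drawn from the means and covariances of the cells that the gate had picked, and no doublets were simulated. Their recovery therefore cannot show whether gated cells are neutrophils. Tools were scikit-learn 1.9.0, scipy 1.17.1, pandas 2.3.3 and numpy 2.4.6 under Python 3.11.15.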

Additional observations from a re-analysis of the deposited data

How the results depend on the processing

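The treated over untreated ratio of week 7 kept its direction and was 0.0739 to 0.107 (share of cells, 0.0905 as reported) and 0.160 to 0.226 (share of CD3-CD11b+ cells, 0.178 as reported) under thinning to 200 counts, gate cuts moved by 0.5 either way, no CD3 cut, other count limits and without cells carrying CD4, CD90.2, CD64 or CD11c. The exception was cuts fitted in each library, where the ratios were 0.532 and 0.929. That setting, and leaving out CD64+ or CD11c+ cells, were chosen after seeing the data. For the comparison of gated with CD3-CD11b+Ly-6G- cells, 6 of 8 proteins passed, and 4 to 7 did so under the scaling, filter and gate alternatives, except that 0 passed on log2 raw counts and 3 without CD4+ or CD90.2+ cells. Leaving out 1 library gave 0 to 6, with the smallest p limited to 0.0156 by 7 pairs.

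Centred over 11 proteins, the differences turned to -0.0924 for Ly-6C, -0.353 for CD103, -0.130 for CD4, -0.0982 for CD90.2, -0.214 for CD127 and -0.303 for KLRG1. With counts scaled to the library median they turned to -0.431, -0.371, -0.227, -0.234, -0.150 and -0.167. Both scalings include the proteins of the rule, and no other setting run turned the sign of these differences.

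The count of trends over weeks, 0, became 1 with Pearson's correlation, thinning, a lowered gate or at least 200 counts (CD4 each time), and 2 with cuts fitted in each library (CD4 and CD11c). Leaving out 1 library gave 0 to 2. CD11c also passed when taken over the level of CD3+CD11b-Ly-6G- cells (rho -0.881, exact adjusted p = 0.0217), a setting run for Ly-6C, CD64 and CD11c only. Trends that passed nowhere changed sign: CD127 to -0.190 centred over 11, -0.0838 on log2 counts, -0.0952 with means and -0.190 without cells carrying CD4, CD90.2, CD64 or CD11c, and KLRG1 to -0.5 centred over 11, -0.833 with means, -0.214 without the CD3 cut, -0.119 with cuts fitted in each library and -0.405 without those cells. Leaving out 1 library gave rho -0.464 to 0.0714 for CD90.2, -0.214 to 0.536 for CD127 and -0.0714 to 0.5 for KLRG1. Cell number limits week 0 and the treated library, with 125 and 61 gated cells.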
